A study of Mus musculus with 11 samples.

Results

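The genes of the nucleus that encode the respiratory chain and the ATP synthase were followed in 11 RNA-seq libraries of cultured mouse mesenchymal stem cells (MSCs, stromal cells that can form bone and fat). The genes were chosen by symbol alone. Protein-coding genes whose symbol starts with Ndufa, Ndufb, Ndufc, Ndufs, Ndufv, Uqcr, Cox4, Cox5, Cox6, Cox7, Cox8 or Atp5 were taken, together with Sdha, Sdhb, Sdhc, Sdhd and Cyc1. This gave 92 of the 28222 genes in the count table. They comprised 83 subunits or their paralogues and 9 other genes that share the symbol pattern. The latter were the assembly factors Ndufaf1 to Ndufaf8, and Atp5s, which is no subunit and was grouped with them. Complex I was represented by 35 subunits, complex II by 4, complex III by 9, complex IV by 19 and complex V, the ATP synthase, by 16. Of 108 annotated genes with such symbols, 13 were not protein-coding, and 3 protein-coding ones, Cox4i1, Ndufa13 and a second annotation named Atp5o, were not analysed here.

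Young MSCs came from mice of 3 to 5 months and old MSCs from mice of 18 to 22 months. The labels divided the libraries into batch A (4 young), batch B (2 young and 2 old) and batch C (3 old), so that age and batch could be separated only in batch B. All cells were grown at 2% O2 in αMEM medium with 10% FBS and penicillin/streptomycin, and polyA RNA was sequenced. The labels did not say whether the replicates came from separate animals or cultures, and the p-values therefore measure the spread between these libraries, which may be technical. Total counts ranged from 11969336 to 20315934 per library, and 3 counts corresponded to 0.156 to 0.253 CPM (counts relative to library size, scaled with TMM factors). As in any bulk sample, fewer cells of a type and less RNA per cell cannot be told apart.

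In the respiratory chain, complex I takes electrons from NADH and complex II from succinate, and both pass them through ubiquinone to complex III, through cytochrome c to complex IV and there to oxygen. Complexes I, III and IV pump protons across the inner mitochondrial membrane, and complex V uses the return flow to make ATP. A few core subunits carry the flavins, iron-sulphur clusters, haems or catalytic sites, and many small accessory subunits surround them. The core subunits of the membrane arm of complex I, cytochrome b, the catalytic subunits of complex IV and parts of complex V are encoded by mitochondrial DNA, so that most complexes need gene products of both genomes. Several complex IV subunits have tissue-specific or hypoxia-induced paralogues.

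A feature that the choice by symbol did not use was the promoter. NRF1 and the ETS factor GABP are known regulators of respiratory genes, and the letters of their motifs were searched for on both strands of 300-base RefSeq promoter windows (GRCm38.p6). Windows were matched to 75 members, 2 of them by an older symbol, and 17 members had none. The NRF1 motif, whose letters read nearly the same on either strand and are shown in capitals in the promoters printed here, occurred in 20 of 80 member windows (25%) and in 4.60% of all 32851 windows. The ETS letters CCGGAAG occurred in 18 member windows (22.5%) and in 8.86% of all windows. The motif of YY1, a further known regulator, occurred in 5 member windows (6.25%) and in 0.986% of all windows. A match is a description of letters and not evidence of binding. To show what such promoters look like, the bases just before the start of 1 gene of complexes I, II, IV and V each are printed on the strand of the gene, with a further complex I gene whose match reads the same on both strands. Capitals mark the motif letters. Distances are counted from the more upstream of the starts in RefSeq and GENCODE M21, which is that of RefSeq for Ndufa11 and Sdhd, 5 and 37 bases before the GENCODE start, and that of GENCODE for the other 3 genes.
Ndufs5, complex I, chr4:123718203-123718342, minus strand, NRF1 letters 82 to 73 bases before the start: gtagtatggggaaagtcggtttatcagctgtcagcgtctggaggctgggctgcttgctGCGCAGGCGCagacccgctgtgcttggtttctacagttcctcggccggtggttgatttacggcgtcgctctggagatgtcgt
Ndufa11, complex I, chr17:56717686-56717761, plus strand, NRF1 letters 60 to 51 bases before the start: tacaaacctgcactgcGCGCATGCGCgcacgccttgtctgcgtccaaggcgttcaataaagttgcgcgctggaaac
Sdhd, complex II, chr9:50603850-50603909, minus strand, ETS letters of the opposite strand 46 to 40 bases before the start: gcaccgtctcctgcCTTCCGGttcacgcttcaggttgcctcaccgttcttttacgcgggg
Cox6a1, complex IV, chr5:115348982-115349121, minus strand, NRF1 letters 139 to 130 and 94 to 85 bases before the start: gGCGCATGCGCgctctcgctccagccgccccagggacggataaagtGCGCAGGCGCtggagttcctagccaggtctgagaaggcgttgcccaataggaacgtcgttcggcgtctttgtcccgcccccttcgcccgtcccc
Atp5h, complex V, chr11:115419963-115420102, minus strand, NRF1 letters 98 to 89 bases before the start: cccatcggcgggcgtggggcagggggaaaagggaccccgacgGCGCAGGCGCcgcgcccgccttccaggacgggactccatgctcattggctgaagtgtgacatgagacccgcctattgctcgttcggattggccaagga

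Respiratory chain genes have short transcripts, which matters because the old libraries of batch C differed from those of batch B by transcript length across all genes. The principal transcripts of the members had a median length of 849.5 nt, compared with 2792 nt for all protein-coding genes in the table. Of the members, 59.8% were shorter than 1000 nt, compared with 8.38% of protein-coding genes. The median coding length was 429 nt against 1290 nt. Members of complex IV were the shortest, with a median of 610 nt, and those of complex II the longest, with 2065.5 nt. Each comparison below is therefore also given after a correction in which a smooth function of length and GC content was removed from every library.

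Levels were compared between genes only per kilobase of transcript, as the mean of the 4 group means. Among the 74 subunits that are not paralogues, the levels ranged from 1.68 CPM per kb for Ndufb2, an accessory subunit of complex I, to 391 CPM per kb for Atp5b, the beta subunit that carries the catalytic sites of the ATP synthase. The median level was 40.4 CPM per kb in complex I, 58.9 in complex II, 67.7 in complex III, 148 in complex IV and 117 in complex V. Per kilobase of coding sequence the medians were 76.7, 141, 137, 355 and 251. Complex IV was highest and complex I lowest on either scale. The order within a complex depended on the annotated transcript, since the principal transcripts of Ndufb2 and Atp5g1 are 4371 and 4715 nt long with coding lengths of 318 and 411 nt. In complex I the highest level was 168 CPM per kb for the accessory subunit Ndufa7. Complex II spanned 36.1 CPM per kb for the membrane anchor Sdhc to 72.6 for the membrane anchor Sdhd. In complex III, the levels lay between 36.8 CPM per kb for the Rieske protein Uqcrfs1 and 189 for the small subunit Uqcrh. In complex IV, Cox5a had the lowest level with 32.9 and Cox6a1 the highest with 268 CPM per kb. Atp5g1 was lowest in complex V with 18.9 CPM per kb. Several of these extremes changed per kilobase of coding sequence. Sdhc was then the highest of complex II with 225 CPM per kb and Sdhb the lowest with 69.2. Uqcrq was highest in complex III and Cox8a in complex IV. In complex V Atp5k was lowest, and Atp5e had the highest level of all with 636 CPM per kb. Ndufb2, Ndufa7, Uqcrfs1 and Cox5a kept their places.

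Summed over the members of a complex, the levels of C old MSCs lay apart from those of the other groups. For complex I, the summed CPM was 1737, 1579, 1803 and 1876 in A young, 1577 and 2067 in B young, 1987 and 2028 in B old, and 895, 851 and 807 in C old MSCs. The 3 C old libraries lay below every other library. The B old libraries lay above those of A young in complexes I, III, IV and V and below them in complex II, and the B young libraries overlapped with both groups in each complex. B old MSCs had 2007 ± 28.7 CPM (SD, n = 2) and C old MSCs 851 ± 43.8 CPM (SD, n = 3), which was 2.36-fold lower. The corresponding folds were 2.38 for complex III, 2.30 for complex IV, 2.09 for complex V and 1.40 for complex II. The sum of complex II, which also belongs to the citric acid cycle, thus differed least. This sum includes Sdha, the only subunit of complex II that did not pass between the old batches, and its inclusion makes the fold smaller. The sums were not corrected for length, and complex II had the longest transcripts. The sum of complex IV includes the abundant paralogue Ndufa4l2, whose old groups overlapped and whose inclusion makes the fold of complex IV smaller. In complex V the summed CPM was 3374 and 3294 in B old and 1642, 1578 and 1563 in C old MSCs. All 92 members together had 8419 ± 20.1 CPM in B old (SD, n = 2) and 3933 ± 144 CPM in C old MSCs (SD, n = 3), a 2.14-fold difference.

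**Figure D1:**
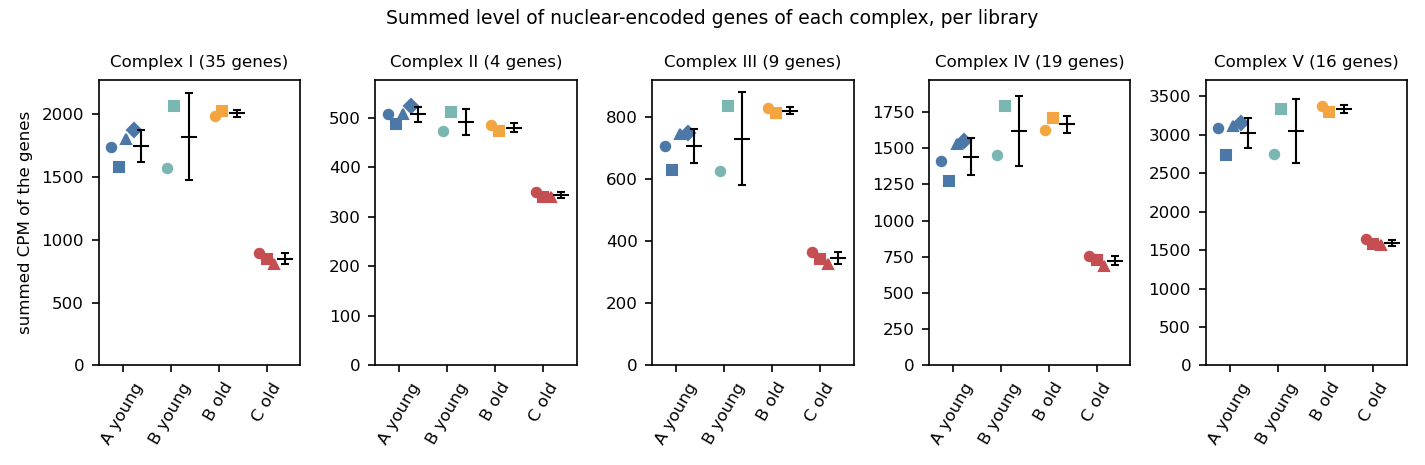
Summed CPM of the subunits and paralogues of each complex (vertical axes, from 0) in the 4 groups (horizontal axes). Each point is a library and the black bar gives the mean ± SD of the group. The 3 C old libraries lie below all other libraries in every complex, by 2.36-fold against B old MSCs in complex I and by 1.40-fold in complex II.

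The first comparison asked how the genes differed between old and young MSCs at equal batch. All 11 libraries entered the fit and batch was a term in it, which means that batch B alone determines the age coefficient. Of 89 members tested, 0 were higher in old MSCs and 2 were lower at an adjusted p under 0.05 (edgeR), while 0.694% of all 16132 tested genes were higher, 1.54% lower and 2.23% either. At an unadjusted p under 0.05, 5 members were higher and 3 lower, against 16.1% of all tested genes in either direction. Limma-trend and DESeq2 likewise found 0 higher and 2 lower. Both genes encode paralogues of complex IV subunits that are known to be induced by hypoxia.

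Cox4i2, the hypoxia-induced form of subunit 4 (chr2:152754173-152765037, plus strand), had 18.8 and 18.0 CPM in B young and 9.02 and 10.4 CPM in B old MSCs. It had 9.92, 8.53, 13.6 and 13.9 CPM in A young and 22.7, 22.6 and 22.1 CPM in C old MSCs. The age groups did not overlap within batch B, but the old libraries of batch C had the highest levels of all. The log2 fold change of old against young was -0.92 ± 0.20 (SE, at an edgeR adjusted p of 0.0210), and without batch in the model it was 0.35. Ndufa4l2, a paralogue of the complex IV subunit Ndufa4 that hypoxia-inducible factors induce, had 203, 205, 241 and 230 CPM in A young, 328 and 295 in B young, 174 and 241 in B old, and 231, 236 and 226 CPM in C old MSCs. The B young libraries were the highest of all. Its log2 fold change was -0.59 ± 0.14 (SE, at an edgeR adjusted p of 0.0395). Its exons overlap those of Shmt2 on the opposite strand, and whether the counting used strand is not given in the sources used here. With B young replicate 1 left out, neither gene passed, at log2 fold changes of -0.89 for Cox4i2 (edgeR adjusted p = 0.0894) and -0.51 for Ndufa4l2 (0.152). In batch B alone neither passed either, at -0.92 (edgeR adjusted p = 0.0597) and -0.59 (0.248). Cox4i2 also did not pass without B old replicate 1 (-0.81) or B old replicate 2 (-1.03). Ndufa4l2 also did not pass without B old replicate 1 (-0.36), without A young replicate 4 (-0.59), without any 1 of the C old libraries (-0.57 in each case) or with scaling by total counts (-0.52).

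The other members differed little between ages. The log2 fold change was above 0 in 75 of 89 members, with a median of 0.15, against 0.00 over all tested genes. The median was 0.17 in complex I, 0.01 in complex II, 0.14 in complex III, 0.18 in complex IV and 0.16 in complex V. In batch B, old MSCs lay above young MSCs without overlap for 20 members and below for 6, whereas 39.7% of all tested genes did not overlap in either direction. After the length and GC correction the median was 0.07, and again 0 members were higher and 2 lower (edgeR), against 2.29% of all genes lower and 3.28% in either direction.

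The age values depended on the young libraries of batch B. B young replicate 1 was the lowest of the 4 batch B libraries for 78 of 89 members (87.6%) and for 30.6% of all tested genes. The example of Cox7c, a small complex IV subunit, had 118 and 165 CPM in B young and 151 and 159 CPM in B old MSCs. Without B young replicate 1, 0 members passed in either direction (edgeR), while 0.491% of all tested genes were higher and 0.743% lower. At an unadjusted p under 0.05, 1 member was then higher and 2 were lower, against 12.3% of all genes in either direction, and the median over members was -0.050. Without B young replicate 2, 29 members were higher and 3 were lower, against 4.41% and 7.63% of all tested genes, and the median over members was 0.39. In both cases a single young library stood for its arm of batch B and was assumed to vary like the other groups. Without batch in the model, which compares 5 old with 6 young libraries of unequal batches, 1 member was higher and 5 were lower, the median was -0.43, and 9.33% of all tested genes were higher and 8.65% lower, 18.0% in all.

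The second comparison asked how batch B differed from batch A in the 6 young libraries. Of 89 members, 8 were higher in batch B and 1 was lower (edgeR), while 9.39% of all 14840 tested genes were higher and 8.71% lower. The median log2 fold change was 0.05, against 0.01 over all genes. The medians of the complexes lay between 0.01 in complex V and 0.11 in complex I. The 8 genes did not belong to a single complex. They were the complex I assembly factors Ndufaf5 (0.74) and Ndufaf4 (0.69), the iron-sulphur subunit Ndufs1 of complex I (0.40), the large core protein Uqcrc2 of complex III (0.51), the stalk subunit Atp5f1 of complex V (0.53), and the complex IV paralogues Cox4i2 (0.70), Cox7a2l (0.56) and Ndufa4l2 (0.52). Their edgeR adjusted p-values ranged from 0.0143 for Ndufa4l2 to 0.0421 for Ndufaf4. The gene that was lower was the assembly factor Ndufaf8, at 14.6, 14.9, 14.4 and 19.3 CPM in A young and 10.4 and 10.0 CPM in B young MSCs, with a log2 fold change of -0.61 ± 0.18 (SE, at an edgeR adjusted p of 0.0318).

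The change in the Cox7a2l level was among those with separate groups. Cox7a2l, a relative of the subunit Cox7a2 that takes part in joining complexes III and IV into supercomplexes, had 145, 143, 174 and 178 CPM in A young and 199 and 266 CPM in B young MSCs. Ndufaf5 had 11.4, 9.20, 11.4 and 11.9 CPM in A young and 14 and 22.3 CPM in B young MSCs. Within these young libraries, groups did not overlap for 10 tested members higher in batch B and 4 lower, against 40.9% of all tested genes in either direction. Without B young replicate 1, 25 members were higher and 0 lower, against 12.8% and 13.7% of all tested genes (edgeR). Without B young replicate 2, 1 member was higher and 0 were lower, against 2.0% and 1.36% of all tested genes. After the length and GC correction, 5 members were higher and 7 lower, the median was -0.071, and 7.25% of all genes were higher and 5.81% lower, 13.1% in all. Below 600 nt, the correction moved the median of members from 0.01 to -0.23. That of other protein-coding genes moved from 0.03 to -0.20. Across members, Spearman's rho between log2 fold change and length was 0.264 before and 0.473 after it. The corrected calls of short members are uncertain to that extent. Of the 8 genes named above, Ndufaf5, Cox4i2, Cox7a2l, Ndufa4l2 and Atp5f1 were higher in the corrected fit as well.

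**Figure D2:**
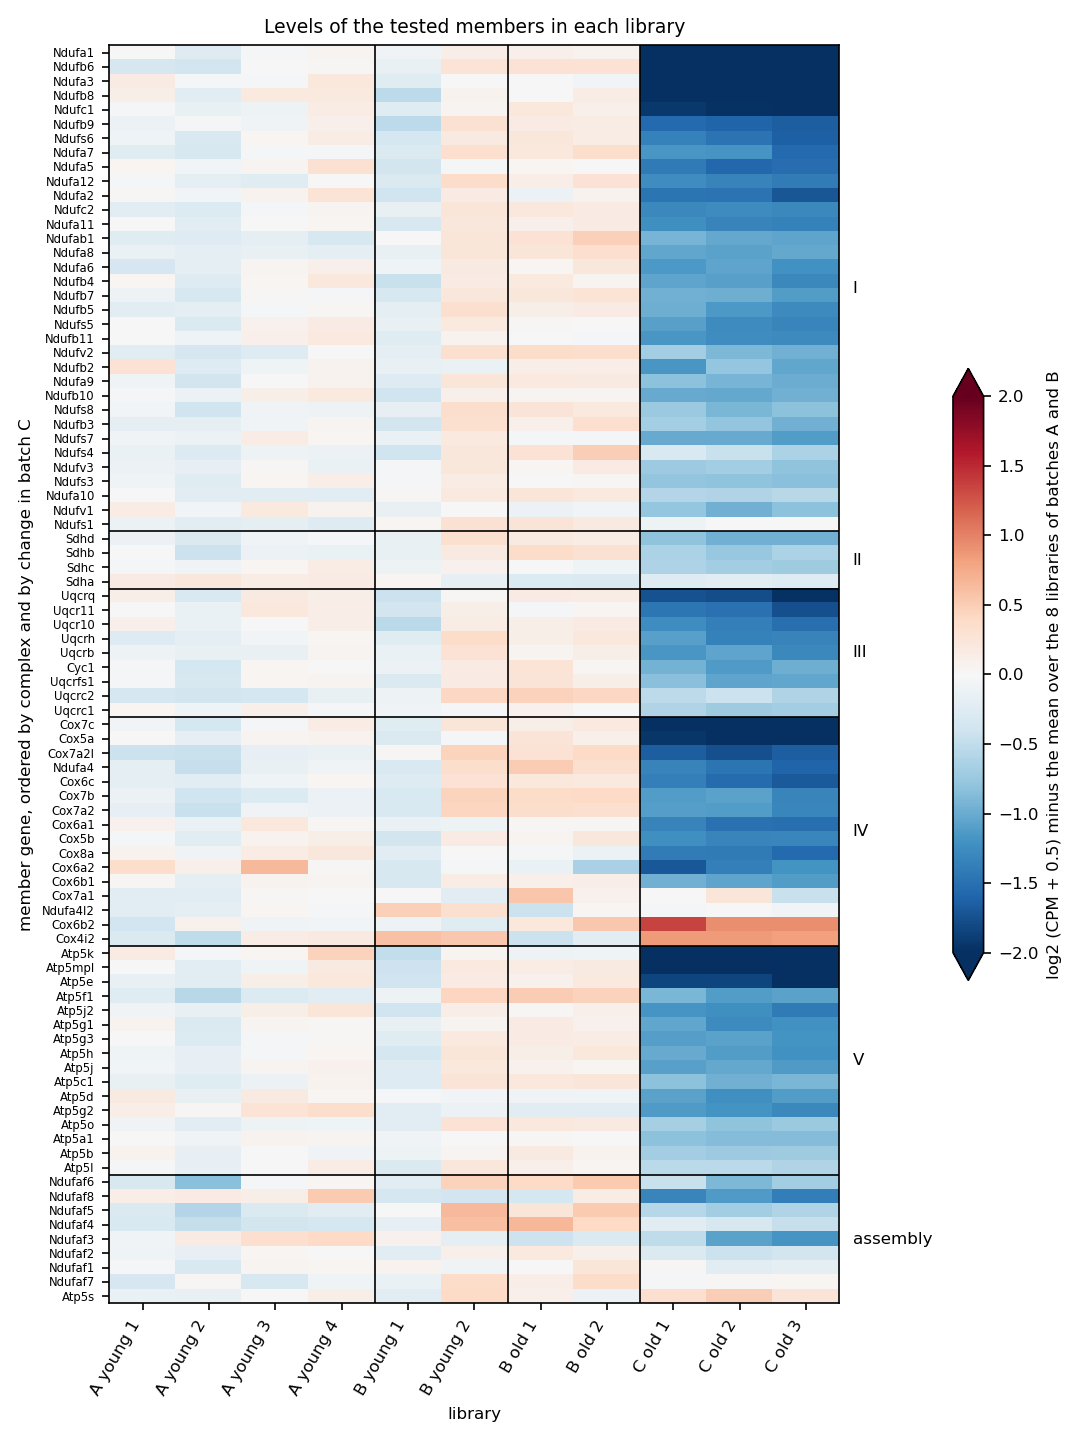
Relative level of 88 of the 89 tested members (rows, grouped by complex) in the 11 libraries (columns), as log2 CPM minus the mean over the 8 libraries of batches A and B, with colours limited to 2 units in each direction. In 75 of the members shown the 3 C old libraries lie below all others, and B young replicate 1 is the lowest batch B library in 77.

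The third comparison asked how batch C differed from batch B in the 5 old libraries. Here 82 of 89 members were lower in batch C and 3 were higher (edgeR), while 32.6% of all 15651 tested genes were lower and 32.1% higher, 64.7% in all. The difference between these batches was thus broad, but its direction among respiratory chain genes was nearly uniform. The median log2 fold change was -1.25, against 0.02 over all genes, and 63 members (70.8%) were more than 2-fold lower, against 10.7% of all tested genes. The lower genes comprised 35 of 35 complex I subunits, 3 of 4 in complex II, 9 of 9 in complex III, 12 of 16 tested in complex IV and 16 of 16 in complex V. In 82 members C old lay below B old MSCs without overlap and in 4 above, whereas 37.4% and 38.8% of all tested genes did so. In 76 members (85.4%), C old libraries lay below every library of the other groups, against 22.0% of all tested genes. With any 1 of the 5 libraries left out, 80 to 83 members were lower.

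Between the same groups the labels give no difference other than batch, and other features of the libraries moved as well. The summed level of 8 blood cell markers, all detected and none at 0 in any library, was 685 to 980 CPM in B old and 116 to 137 CPM in C old MSCs, while it was 560 to 1170 CPM in A young and 337 to 656 CPM in B young MSCs. The summed level of 4 proliferation markers was 132 to 194 CPM in B old and 359 to 414 CPM in C old MSCs, and 89.6 to 317 CPM in young MSCs. The old batches differed mostly in Mki67 and Top2a, with log2 fold changes of 2.39 and 1.06. Cdk1 passed at 0.34, while Ccnb1 had 0.16 and did not pass (edgeR adjusted p = 0.407). That of 8 MSC markers, all detected, was 2763 to 2813 CPM in B old and 2489 to 2632 CPM in C old MSCs. Itgb1 made up a large part of that sum, and 4 of the 8 MSC markers passed the test (edgeR), namely Pdgfra and Nt5e with log2 fold changes of 1.22 and 0.79 and Ly6a and Cd44 with -1.06 and -0.61. The adipocyte markers summed to 0.134 to 0.135 CPM in B old, which is below the level of 3 counts, and 12.2 to 25 CPM in C old MSCs. They summed to 0.332 to 5.44 CPM in A young and 0.104 to 0.340 CPM in B young MSCs. Of these markers Ucp1, which marks brown fat, was at 0 in both B old libraries and in 2 of the 3 C old libraries. The part of these markers in the result was not tested.

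**Figure D3:**
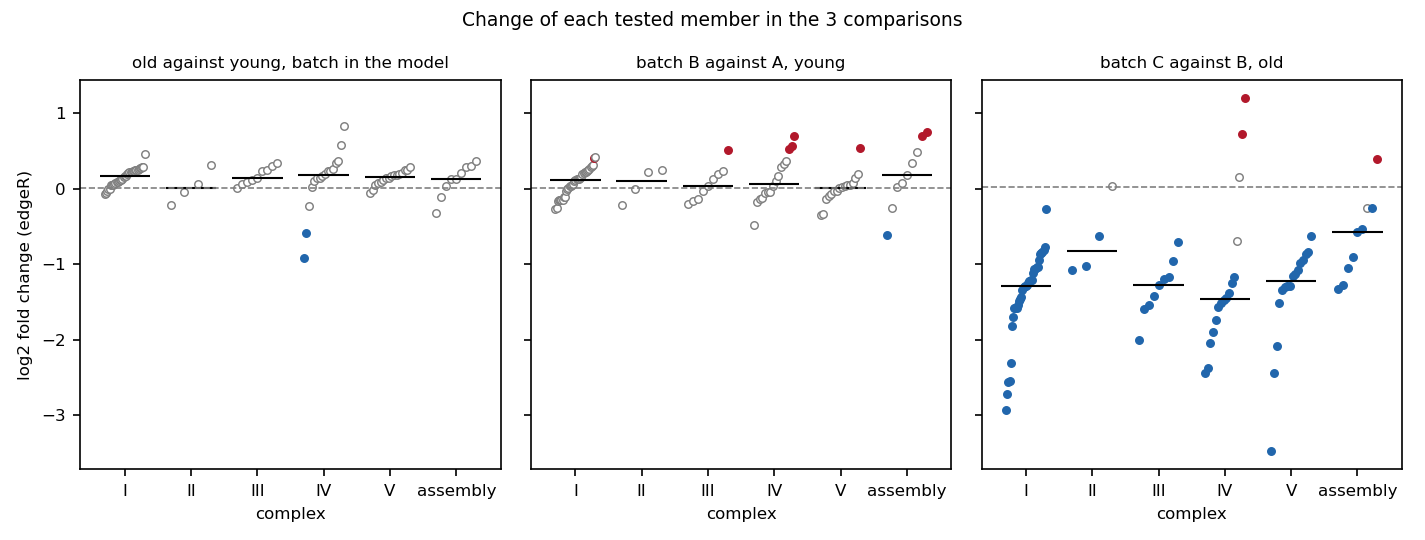
Log2 fold change (vertical axes) of each tested member by complex (horizontal axes) in the comparisons of age, of batch B with A in young and of batch C with B in old MSCs. Filled blue points are lower and filled red points higher at an edgeR adjusted p under 0.05, and open points did not pass. Black lines are medians of a complex or of the assembly factors, and the dashed line is the median of all genes. Medians of the complexes lie near 0 in the comparisons of age and of batch B with A. In the comparison of batch C with B they lie at -0.83 to -1.46, and the median of the assembly factors is smaller in size.

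Within complex I, before the length and GC correction, small accessory subunits fell furthest and the core subunits fell less in the median. Ndufa1, an accessory subunit of the membrane arm (chrX:37187588-37191163, minus strand, 419 nt), had 41.4, 34.4, 40.6 and 43.0 CPM in A young, 39.4 and 45.6 in B young, 44.3 and 43.5 in B old, and 5.94, 6.28 and 5.00 CPM in C old MSCs. The 8 libraries of batches A and B lay within a narrow range and the C old libraries far below it. Between old batches the log2 fold change was -2.93 ± 0.11 (SE, at an edgeR adjusted p of 1.54e-09), which corresponded to a 7.63-fold lower level. Ndufa3, another accessory subunit, had 72.0 and 68.6 CPM in B old and 13.0, 12.8 and 9.86 CPM in C old MSCs, a log2 fold change of -2.56 (edgeR adjusted p = 2.74e-09).

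At the other end stood Ndufs1, which holds iron-sulphur clusters of the NADH-oxidising module and is encoded by a transcript of 2661 nt. It had 68.1 and 64.8 CPM in B old and 52.9, 56.4 and 56.5 CPM in C old MSCs. The groups did not overlap, and the log2 fold change was -0.27 ± 0.07 (SE, at an edgeR adjusted p of 0.00397), but it was -0.08 and did not pass when libraries were scaled by total counts. Ndufv1, the flavoprotein that binds NADH, had a log2 fold change of -0.77, and its neighbour Ndufv2 of -1.21. Among core subunits on the quinone side, the log2 fold changes were -0.84 for Ndufs3, -1.03 for Ndufs7 and -1.07 for Ndufs8, and all of these passed. The median was -0.94 over 7 core subunits and -1.39 over 28 accessory subunits of complex I. These medians were not corrected for length, and short transcripts were lower among other genes as well.

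Complex II was divided between its catalytic flavoprotein and the other subunits. Sdha, which oxidises succinate, had 231, 240, 227 and 230 CPM in A young, 211 and 182 in B young, 169 and 168 in B old, and 172, 175 and 172 CPM in C old MSCs. The old libraries of both batches were close together and below all young libraries. With batch in the model the age difference of Sdha did not pass, and batch C holds no young libraries. Between old batches the log2 fold change was 0.04 ± 0.06 (SE, at an edgeR adjusted p of 0.613). It was 0.23 when scaled by total counts and passed there, and -0.19 after a correction by coding length. The iron-sulphur subunit Sdhb had 80.2 and 76.2 CPM in B old and 39.8, 36.6 and 39.6 CPM in C old MSCs. Its log2 fold change was -1.02 (edgeR adjusted p = 1.49e-07). The anchors Sdhc and Sdhd had log2 fold changes of -0.63 and -1.08. The ratio of Sdha to Sdhb, each in CPM per kb, was 0.830 and 0.868 in B old and 1.71, 1.88 and 1.71 in C old MSCs, and it lay between 1.02 and 2.08 in young MSCs.

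All 9 subunits of complex III were lower in batch C. Uqcrq, a small subunit next to cytochrome b, had 131 CPM in both B old libraries and 34.5, 34.1 and 29.4 CPM in C old MSCs. The groups lay far apart, with a log2 fold change of -2.0 ± 0.08 (SE, at an edgeR adjusted p of 1.89e-09). The redox subunits Cyc1 (cytochrome c1) and Uqcrfs1 (the Rieske iron-sulphur protein) had log2 fold changes of -1.20 and -1.18, and the large core protein Uqcrc2 of -0.95. Uqcrh and Uqcrb, both small subunits, had log2 fold changes of -1.43 and -1.27.

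In complex IV, the 10 general subunits were all lower, with a median log2 fold change of -1.54, and the paralogues diverged. Cox7c had 134, 109, 137 and 155 CPM in A young, 151 and 159 in B old, and 30.9, 29.6 and 25.2 CPM in C old MSCs. Its log2 fold change was -2.44 ± 0.08 (SE, at an edgeR adjusted p of 9.73e-10), a 5.42-fold lower level. Cox5a and Cox5b, the subunits on the matrix side, had log2 fold changes of -2.38 and -1.44. Cox7a2l, described above for batch B, had 238 and 258 CPM in B old and 61.7, 57.0 and 61.9 CPM in C old MSCs. This was the only paralogue over 4-fold lower, with a log2 fold change of -2.05 (edgeR adjusted p = 9.73e-10). Ndufa4 had a log2 fold change of -1.90, Cox7a2 of -1.52, Cox7b of -1.57 and Cox8a of -1.38.

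Among the paralogues, 2 were higher in batch C. Cox4i2, at 9.02 and 10.4 CPM in B old and 22.1 to 22.7 CPM in C old MSCs, had the largest rise of all members, with a log2 fold change of 1.20 ± 0.11 (SE, at an edgeR adjusted p of 1.55e-06). Its partner Cox4i1 was not analysed here, so that no ratio of the forms is given. Cox6b2, known as the testis form of subunit 6b, had 9.90 and 12.6 CPM in B old and 22.5, 16.6 and 16.6 CPM in C old MSCs. Its log2 fold change was 0.72 ± 0.16 (SE, at an edgeR adjusted p of 0.00194), while that of the general form Cox6b1 was -1.17. The ratio of Cox6b2 to Cox6b1 in CPM per kb lay between 0.0534 and 0.0981 in the 8 libraries of batches A and B and was 0.374, 0.294 and 0.308 in C old MSCs.

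Ndufa4l2 had 174 and 241 CPM in B old and 231, 236 and 226 CPM in C old MSCs. Its groups overlapped, and the log2 fold change was 0.15 ± 0.11 (SE, at an edgeR adjusted p of 0.235). After the length and GC correction the log2 fold change was 0.51 and passed (edgeR adjusted p = 0.00146). The ratio of Ndufa4l2 to Ndufa4 in CPM per kb was 4.80, 5.30 and 5.64 in C old MSCs, compared with 0.998 and 1.56 in B old, 3.30 and 1.88 in B young and 1.88 to 2.28 in A young MSCs. The level of Ndufa4l2 per kilobase exceeded that of Ndufa4 in all libraries but B old replicate 1, where the ratio was 0.998. The muscle forms were low throughout. Cox6a2 accounted for 1.42% to 3.30% of the summed level of Cox6a1 and Cox6a2 per kilobase, and its log2 fold change was -1.25 (edgeR adjusted p = 0.00194), beside -1.47 for Cox6a1. Cox7a1 had 0.218 to 0.943 CPM over all libraries, close to the level of 3 counts, and did not pass. Cox7b2, Cox8b and Cox8c had 2, 4 and 1 counts in all libraries together and were not tested.

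**Figure D4:**
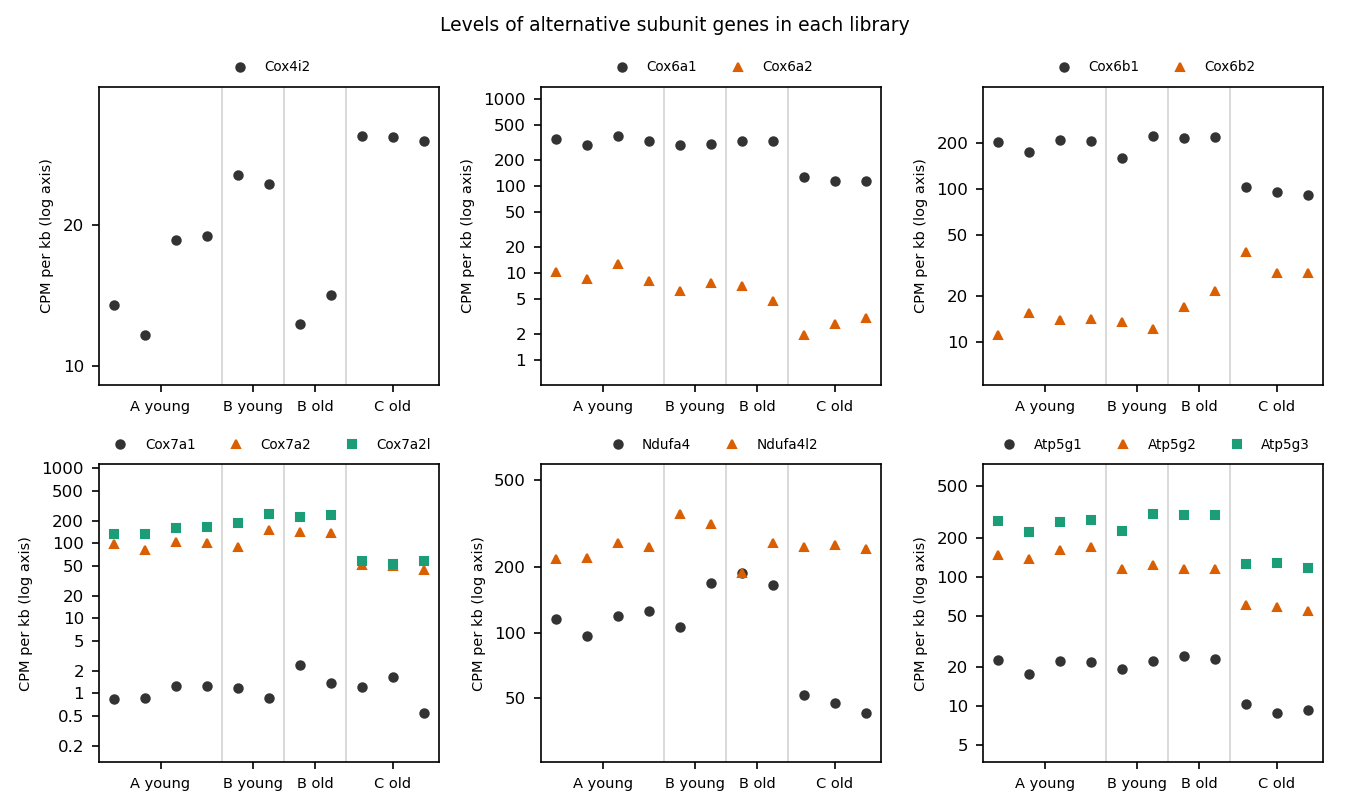
Level of paralogous complex IV and V genes in CPM per kb (vertical axes, log scale) in each library, grouped by age and batch. Ndufa4l2 keeps its level in C old libraries where Ndufa4 is low, with a ratio of 4.80 to 5.64, and Cox6b2 lies nearest to Cox6b1 there, with a ratio of 0.294 to 0.374.

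In complex V, before the length and GC correction, the catalytic subunits fell less than most of the small ones. Atp5b, the beta subunit, had 857, 729, 812 and 778 CPM in A young, 767 and 848 in B young, 928 and 856 in B old, and 504, 497 and 500 CPM in C old MSCs. The log2 fold change was -0.84 ± 0.07 (SE, at an edgeR adjusted p of 5.19e-07), and that of the alpha subunit Atp5a1 was -0.86. The gamma subunit Atp5c1, the rotating shaft, and the delta subunit Atp5d had log2 fold changes of -1.13 and -1.08, and the epsilon subunit Atp5e, encoded by a transcript of 421 nt, of -2.09 (edgeR adjusted p = 4.54e-09). The 3 genes of subunit c, which forms the rotor ring, had log2 fold changes of -1.31 (Atp5g1), -0.99 (Atp5g2) and -1.29 (Atp5g3). Reads can be shared with near-identical copies here, because pseudogenes alike to Atp5g2 held 42.7% of the counts of gene and copies together, and those alike to Atp5g1 8.46%. The value was 19.6% for Ndufs3 and 11.4% for Atp5l, and at most 5% for the other members. Exons of 30 members overlap exons of another gene, among the genes named here Atp5a1, Atp5d, Atp5f1, Atp5g2, Atp5l, Atp5o, Cox5a, Cox6a2, Ndufa3, Ndufa4l2, Ndufa11, Ndufaf2, Ndufaf3, Ndufb2, Ndufs1, Ndufs3, Uqcrb and Uqcrc2, and their counts are uncertain to that extent.

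The largest difference of any member was found for Atp5k (ENSMUSG00000050856, chr5:108433244-108434448, minus strand), which encodes subunit e of the ATP synthase, a membrane protein at the interface of its dimers. Atp5k had 45.5, 39.9, 41.9 and 56.0 CPM in A young, 28.7 and 42.2 in B young, 37.9 and 38.3 in B old, and 3.41, 4.45 and 2.32 CPM in C old MSCs. This gave a log2 fold change of -3.48 ± 0.16 (SE, at an edgeR adjusted p of 8.06e-09), an 11.1-fold lower level. Atp5mpl, another small membrane subunit, had a log2 fold change of -2.44 (edgeR adjusted p = 1.15e-09). The principal transcript of Atp5k has 371 nt, of which 216 code for protein. Its coding sequence is printed to show how short such a transcript is, with the start and stop codons in capitals (GENCODE M21, GRCm38).
Atp5k: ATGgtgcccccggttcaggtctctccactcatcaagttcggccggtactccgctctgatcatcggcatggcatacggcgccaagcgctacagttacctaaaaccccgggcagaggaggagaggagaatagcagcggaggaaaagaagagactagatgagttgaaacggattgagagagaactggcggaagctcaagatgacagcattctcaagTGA

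Before the length and GC correction, the assembly factors among the members differed less in the median than the subunits. Such factors guide the building of a complex without remaining in it. Atp5s, which is no subunit, was counted with them, which gave 9 genes. Of these, 7 were lower, 1 was higher and 1 did not pass, with a median log2 fold change of -0.57. Most of the 9 genes have principal transcripts longer than 1000 nt, and longer transcripts were less low among other genes as well. Ndufaf6, Ndufaf8 and Ndufaf5 had log2 fold changes of -1.32, -1.28 and -1.05, and Ndufaf7 of -0.26. Ndufaf1 had a log2 fold change of -0.26 and did not pass (edgeR adjusted p = 0.0935). Atp5s, a factor linked to the ATP synthase, had 6.87 and 5.88 CPM in B old and 8.24, 9.23 and 7.76 CPM in C old MSCs, and its log2 fold change was 0.40 (edgeR adjusted p = 0.0429). Under several alternatives, among them DESeq2, Atp5s did not pass.

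Since short transcripts were lower in batch C among other genes as well, members were set beside other protein-coding genes of like length. Below 600 nt, the median log2 fold change was -1.54 over 21 members and -1.06 over 158 other protein-coding genes. From 600 to under 1000 nt it was -1.28 against -0.69, from 1000 to under 2000 nt -1.07 against -0.29, and from 2000 nt upwards -0.86 over 9 members against 0.13. Members were thus lower than genes of like length in every class, and the gap was widest among the longest transcripts, where there were 9 members. Across members, Spearman's rho between log2 fold change and length was 0.516 (n = 89 genes, which share libraries and depth), and between log2 fold change and coding length 0.597. Over all tested genes the values were 0.282 and 0.441.

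After the length and GC correction, 77 members were lower and 4 higher, while 36.8% of all tested genes were lower and 25.9% higher. The median log2 fold change of the members was -0.84, against -0.08 over all genes. It was -0.89 in complex I, -0.71 in complex II, -0.90 in complex III, -0.91 in complex IV and -0.83 in complex V. The class medians of the members were then -0.89, -0.77, -0.86 and -0.87 from the shortest to the longest class, and those of other protein-coding genes -0.43, -0.26, -0.17 and -0.10. The number of members over 2-fold lower fell from 63 to 28 (31.5%, against 9.67% of all tested genes). Among members, Spearman's rho with length was 0.091 and with coding length still 0.313. Over all tested genes the values were 0.017 and 0.246, so a trend with coding length remained there too. All 77 were also lower without the correction. The 5 members that were lower only without it were Ndufaf2, Ndufaf3, Ndufaf7, Cox6a2 and Atp5l. Atp5k, Atp5e and Cox7a1 were moved most by the correction, Atp5k to a log2 fold change of -2.69, Atp5e to -1.35 and Cox7a1 to 0.04. With a correction by coding length, the median over members was -0.77.

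**Figure D5:**
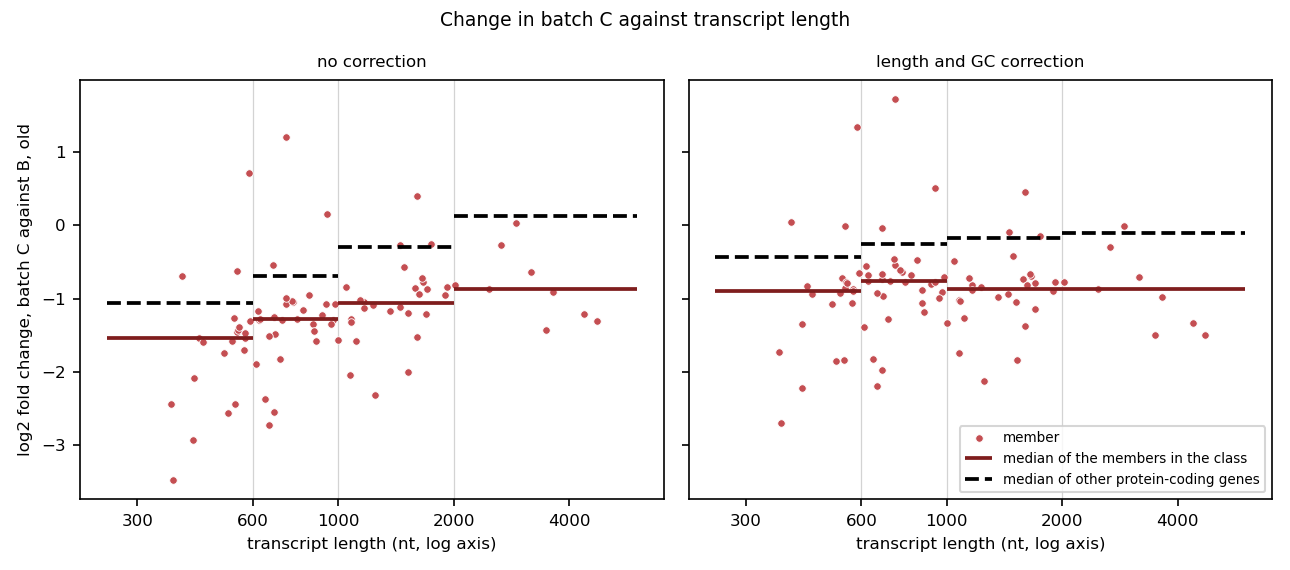
Log2 fold change of batch C against B in old MSCs (vertical axes) against transcript length in nt (horizontal axes, log scale) for the members, before and after the length and GC correction. Solid lines give class medians of members and dashed lines those of other protein-coding genes, which are -1.54 and -1.06 below 600 nt before and -0.89 and -0.43 after the correction.

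Related gene lists were lower in the same comparison to different degrees. Of 80 tested cytosolic ribosomal protein genes, 80 were lower, with a median log2 fold change of -1.60, and -1.26 after the correction, so that the members were not the lowest group. Of 76 mitochondrial ribosomal protein genes 70 were lower (median -0.82), of 39 proteasome genes 36 (median -0.74), and of 47 assembly factors of the complexes, 8 of them members, 39 (median -0.63). In a list of 15 genes for ubiquinone synthesis and cytochrome c, 9 were lower and 1 higher (median -0.36). Cycs, cytochrome c itself, had 85.8 and 73.9 CPM in B old and 31.5, 28.1 and 29.1 CPM in C old MSCs, a log2 fold change of -1.44 (edgeR adjusted p = 4.17e-08). The lists were each given as counts and medians, with no test between them.

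Of the 11 mRNAs from mitochondrial DNA in the table, 9 were lower in batch C, with a median log2 fold change of -1.08. This count rested on B old replicate 1, in which these mRNAs summed to 29342 CPM, compared with 10711 CPM in B old replicate 2 and 10440 to 11158 CPM in C old MSCs. Without B old replicate 1, 3 were lower and 1 was higher, with a median of -0.07. Without that library 83 members were lower and 3 higher, against 30.6% and 29.8% of all tested genes, with a median over members of -1.22.

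Of 15 genes for transcription factors and coactivators that are known to act on respiratory genes, 14 were tested, 6 of them lower and 3 higher in batch C, with a median log2 fold change of -0.08. Nrf1, whose motif letters are printed above, had 21.9 and 16.9 CPM in B old and 22.0, 18.9 and 16.3 CPM in C old MSCs, and its log2 fold change was -0.02 (edgeR adjusted p = 0.904). Gabpa, the DNA-binding subunit of GABP, was higher by 0.35 and its partner Gabpb1 had a log2 fold change of -0.57. Esrra and the mitochondrial transcription factors Tfam and Tfb2m had log2 fold changes of -0.65, -0.49 and -0.61. The coactivator Ppargc1a had 0.0826 to 0.580 CPM over all libraries and did not pass.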

How the data were processed

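PolyA RNA of 11 MSC libraries was measured. The authors deposited 1 table, which holds unnormalized whole-number counts for each Ensembl gene in each library. The submitters' processing notes name the builds GRCm38 and mm10. The aligner, the counter, the library kit, the use of strand and any cell sorting are not given in the sources used here. Groups were taken from the labels, and all 11 libraries were used. Gene names, lengths and coordinates (1-based) came from GENCODE M21 on GRCm38, which matched 28179 of 28222 genes.

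Counts were tested with the two-sided quasi-likelihood test of edgeR 4.0.16 (R 4.3.3) after filterByExpr with a minimum count of 5 and TMM scaling, and p-values were adjusted by Benjamini-Hochberg over all tested genes at 0.05. CPM used TMM-scaled totals. The length and GC correction removed a loess surface (span 0.3) from each library and was entered as an offset. DESeq2 1.42.0, limma 3.58.1, other scalings, filters, length measures, the replicate block and leaving out each library were tried as alternatives. The main edgeR fits, the limma and DESeq2 fits and the length and GC correction were run on simulated data. The other alternatives were not. In these simulations all genes shared a single spread setting, and the added length trend was linear in log2 length. They therefore cannot show how the correction acts on the real libraries. Near-identical copies were found with BLAST 2.17.0 (at least 95% identity over 150 nt), and sequences came from RefSeq and GENCODE. Counting depth limited low genes, and the floor of 3 counts covers counting error only.

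The members and the gene lists were chosen with earlier results of these data known, so that counts and medians over them carry no p-value. Named were, per comparison, up to 8 called members in each direction by adjusted p, the core subunits, the paralogue groups, the highest and lowest levels of each complex, the most extreme fold changes and the 3 members that the correction moved most. Members outside this rule (Ndufaf1, Ndufaf2, Ndufaf3, Ndufaf6, Ndufaf7, Atp5l, and Ndufs5, Ndufa11 and Atp5h among the printed promoters) were named after their values were seen. Values of a member that the rule also names are not reported here.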

Additional observations from a re-analysis of the deposited data

Results flagged for a closer look

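In 4 of 56 groups of 4 libraries examined, all in A young MSCs, the highest or lowest library stood apart by Dixon's criterion, which chance meets in about 1 of 20 groups. In A young replicate 4, Ndufaf8 had 19.3 CPM, while the other 3 libraries had 14.4 to 14.9 CPM. In A young replicate 2, Uqcrq had 94.5 CPM (127, 132 and 127 CPM in the others), Cox6b1 had 109 CPM (127, 130 and 129 CPM in the others), and the subunits of complex V summed to 2735 CPM (3093, 3119 and 3152 CPM in the others). A young replicate 2 had the lowest summed level of the A young libraries in each of the 5 complexes, and its part in the comparison of batch B with A is given by the range over left-out libraries.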

How the results depend on the processing

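The lower level of the members in C old MSCs kept its direction under all alternatives, with medians of -0.77 (coding length correction), -0.84 (length and GC correction), -0.86 (the same with the longest transcript), -1.06 (scaling by total counts), -1.21 (replicate block) and -1.26 to -1.21 with a library left out. With a library left out, 80 to 83 members were lower and 2 to 3 higher. Scaling by total counts gave 5 higher members and moved the median of all genes from 0.02 to 0.22 and their calls from 5029 higher and 5104 lower to 6472 and 3825.

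The age values were unstable. The number of lower members was 5 and of higher 1 without a batch term (median -0.43), lower 1 with the replicate block or scaling by total counts, where Ndufa4l2 did not pass, 0 in batch B alone, and higher 1 without the filter. With a library left out, 0 to 29 were higher and 0 to 3 lower, with a median of -0.050 to 0.39. Leaving out a library of batch B leaves 1 sample in an arm, which is assumed to vary like the other groups.

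For batch B against A, lower members numbered 2 with 4 groups in 1 fit, 3 with the coding length correction, 7 with the length and GC correction, 8 with the longest transcript, and 0 with the replicate block or scaling by total counts. Higher members numbered 5 with the length and GC correction (median -0.071) and 1 with the replicate block. With a library left out, 1 to 25 were higher and 0 to 1 lower, with a median of -0.12 to 0.25. Without A young replicate 2, 1 was higher and 0 lower.

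Single members reversed as follows, and the cause was not tested. Cox4i2 had an age difference of 0.35 without a batch term, Uqcrb -0.37 and -0.42 for batch B against A with the length and GC correction (principal and longest transcript), and Sdha -0.19 for batch C against B with the coding length correction. Among named members, calls were lost in 14 cases for age (2 members), 44 for batch B against A (9 members) and 11 for batch C against B (3 members), and gained in 20, 20 and 6 cases. The longest transcript and coding length were chosen after seeing the data. Replicate numbers were treated as shared names only. Deviations from the group means had r = -0.11 to 0.04 between libraries with the same number. In a group of 2 libraries the deviations mirror each other, so these values cannot show whether the numbers mark shared animals or preparations. Depth limits Cox7a1, Cox7b2, Cox8b and Cox8c, which lie near 3 counts.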
